A study of Mus musculus with 29 samples.

Results

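The immunoglobulin heavy chain segments of the mouse were examined in RNA-seq data of pro-B cells, which are the early B cell progenitors of the bone marrow that rearrange the heavy chain locus. All entries of the expression tables whose name begins with Igh were taken, except *Ighmbp2* and its variants, which belong to an unrelated gene. The mm9 tables held 145 such entries of 24732 in all, namely 113 variable (V), 20 diversity (D), 4 joining (J) and 8 constant region entries. The mm10 tables held 215 of 25588, with 183 V, 20 D, 4 J and 8 constant entries. The choice used names only and no measured value.

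The mm9 libraries were 3 of wild-type and 2 of Pax5(-/-) pro-B cells, all sorted by flow cytometry from the bone marrow of C57BL/6 mice and used without culture. *Pax5* encodes the transcription factor that commits progenitors to the B cell lineage, and the Pax5(-/-) animals lack a functional copy of it in every cell. The sort gates differed between the genotypes. Both took B220+ Kit+ cells, but the wild-type gate also asked for the absence of CD2, IgM and IgD, and the gate for Pax5-deficient progenitors for the presence of Ly6D. The mm10 libraries were 3 of pro-B cells from mice at 3 weeks of age that carry the Meox2-cre allele, which expresses Cre recombinase throughout the embryo. Their labels give the genotype as Pax5(+/+) Meox2-cre, whereas the study's own list of sequenced libraries gives a single functional *Pax5* allele, so their *Pax5* dose is uncertain. All values are TPM, a transcript abundance made from read counts and gene length and scaled to a sum of 1000000 per library. Nothing in the labels says whether the libraries of a genotype came from separate mice, so the p-values measure only the spread between these libraries.

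*Pax5* itself was at 342, 386 and 391 TPM in wild-type and at 43.0 and 39.1 TPM in Pax5(-/-) cells. Its log2 fold change was -3.17 (SE 0.11, limma adjusted p = 3.14e-06). For the counts of markers that follow, the share over all 12066 genes tested was 21.5% lower and 15.6% higher in Pax5(-/-) cells (adjusted p below 0.05). Of 7 pro-B markers, 5 were lower in Pax5(-/-) cells and none was higher. *Vpreb1* fell from between 1914 and 2147 TPM to 350.98 and 321.66 TPM, while the differences of *Kit* (log2 fold change 0.29) and *Il7r* (0.48) did not pass the test. The defining T cell marker *Cd3e* was between 0.088 and 0.43 TPM in wild-type and at 0 in both Pax5(-/-) libraries. The T cell list was at a sum between 56.5 and 73.7 TPM in wild-type and at 200.7 and 205 TPM in Pax5(-/-) libraries, nearly all of it the kinase gene *Lck*, and 2 of 2 tested markers were higher (*Lck*, and *Cd4* at 0.37, 0.52 and 0.71 against 3.97 and 5.88 TPM). The later B cell list fell in sum from between 104 and 181 TPM to between 41.8 and 48.0 TPM, with 4 of 5 tested markers lower and 1 higher. The plasma cell list had 3 lower and 2 higher of 7 tested, with sums between 1774 and 2074 TPM in wild-type and between 1994 and 2193 TPM in Pax5(-/-) libraries. Of the NK and innate lymphoid list, 1 of 3 tested markers was lower and 2 were higher (sums between 6.97 and 20.3 against 45.3 and 50.05 TPM), and of the plasmacytoid dendritic list 3 of 6 were lower and 2 higher (between 917.55 and 1002.5 against 374.5 and 505.8 TPM). Of the myeloid list, 2 of 5 were lower (between 39.3 and 109.9 against 55.1 and 63.96 TPM), and of the erythroid list 2 of 2 were lower (between 19.4 and 57.5 against 9.51 and 4.55 TPM), with *Hbb-b1* at 0 in all 5 libraries. The part of these cell types and gates in the results below was not tested, and fewer cells of a type and less RNA per cell cannot be told apart in bulk samples.

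A heavy chain gene is assembled in 2 steps of V(D)J recombination, in which the RAG1 and RAG2 proteins first join a D to a J segment and then a V segment to the DJ unit. The segments lie in the order V, D, J and constant on the minus strand of mouse chromosome 12. The V families IGHV5 and IGHV2 (Q52) lie nearest to the D segments, and IGHV1 (J558) and IGHV8 lie farthest away. Unrearranged segments are transcribed as germline transcripts, and rearranged segments as VDJ transcripts that are spliced to the mu constant region. A read count per segment does not separate these forms. Pax5-deficient pro-B cells are known to carry D to J and proximal V rearrangements but few distal ones, since Pax5 is required for the contraction of the locus that brings distal V segments close.

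Each V segment is followed by a recombination signal sequence, whose heptamer CACAGTG is cut by the RAG proteins. The signals of 10 V segments are shown because these carry the largest differences and the contrasts described below. The sequences were read from the NCBIM37 (mm9) genome at the coordinates of the GENCODE vM1 models, on the minus strand in the 5′ to 3′ direction of the gene. Capitals mark the heptamer, or the letters nearest to it, and the lower case letters are the next 32 bases, which hold the spacer and the nonamer.

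Ighv1-23 (higher in Pax5(-/-), chr12:116002622-116002660): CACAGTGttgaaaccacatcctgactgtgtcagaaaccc

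Ighv1-56 (higher, chr12:116480974-116481012): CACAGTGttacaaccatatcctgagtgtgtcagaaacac

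Ighv1-14 (higher, chr12:115884744-115884782): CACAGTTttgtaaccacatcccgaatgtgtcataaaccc

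Ighv8-9 (higher, chr12:116706504-116706542): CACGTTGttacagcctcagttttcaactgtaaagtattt

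Ighv14-2 (no difference past the test, chr12:115232641-115232679): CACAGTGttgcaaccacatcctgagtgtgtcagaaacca

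Ighv5-2 (lower, nearest tested V, chr12:114816676-114816714): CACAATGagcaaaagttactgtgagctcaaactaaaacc

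Ighv5-17 (lower, chr12:115097321-115097359): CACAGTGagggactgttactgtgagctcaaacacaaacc

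Ighv4-1 (lower, chr12:115186454-115186492): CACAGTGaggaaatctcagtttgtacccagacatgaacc

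Ighv3-6 (lower, chr12:115526324-115526362): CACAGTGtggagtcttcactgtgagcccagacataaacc

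Ighv1-26 (lower, chr12:116026544-116026582): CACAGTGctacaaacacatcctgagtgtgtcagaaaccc

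The exact heptamer was present on the coding strand within 31 bases after 77 of the 109 V models (70.6%), compared with 0.31% of RefSeq promoters (GRCm38.p6) in a window of the same length. It was found after 39 of 49 modelled V segments that were lower in Pax5(-/-) cells, after 2 of 4 that were higher and after 24 of 34 without a difference past the test. *Ighv1-14* and *Ighv8-9*, which were higher, and *Ighv5-2*, which was lower, are the ones shown here without the exact letters. A match or its absence is a description of these letters only.

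V segments also carry a promoter with the octamer ATTTGCAT, which is bound by Oct factors and lies on either strand. Windows of 30 bases around it are shown for V segments from both ends of the range of differences, with the octamer in capitals. In all of them it reads ATGCAAAT on the coding strand, the reverse complement.

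Ighv1-23 (chr12:116003165-116003194): cactcataaatATGCAAATtacttgggtct

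Ighv14-2 (chr12:115233196-115233225): gcctcatgagtATGCAAATcatgtgagact

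Ighv5-2 (chr12:114817314-114817343): agcaggaccacATGCAAATaagccttctct

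Ighv5-17 (chr12:115097940-115097969): agcaggatgatATGCAAATaattcttctct

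Ighv4-1 (chr12:115187046-115187075): agcagggaaacATGCAAATaaggcctctct

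Ighv3-6 (chr12:115526884-115526913): tgtctccctgcATGCAAATgcttcttctaa

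On either strand, the octamer lay in the 300 bases before 85 of 109 V models (78.0%) and in 1.74% of 32851 RefSeq promoters of the same length. It was present for 40 of 49 lower, 3 of 4 higher and 26 of 34 V segments without a difference past the test. *Ighv1-26* and *Ighv1-56* had no octamer in this window.

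The comparison of wild-type with Pax5(-/-) pro-B cells addressed which heavy chain segments differ in their transcript level when Pax5 is absent. Of the 105 members whose mean exceeded 1 TPM in either genotype, 56 were lower in Pax5(-/-) cells, 6 were higher and 43 did not pass the test (limma on log2(TPM + 0.5), adjusted p below 0.05). Among all 12066 genes tested, 21.5% were lower and 15.6% were higher by the same rule. The median log2 fold change was -1.36 over the tested members and -0.12 over all genes tested, and -1.13 over the members when those at 0 in both Pax5(-/-) libraries were set to a bound from 3 reads per library and 3 without a bound were left out. Of these 105 members, 51 passed the filter through the wild-type libraries alone and 4 through the Pax5(-/-) libraries alone, so these had to differ to some degree. The 50 members that passed in both genotypes had 17 lower, 4 higher and a median of -0.43. A further 20 of the 145 members were at 0 in every library, and 20 were present but too low to be tested. With the thresholds of the study's methods, a change above 3-fold and a mean above 5 TPM, 21 members were lower and 2 higher, against 3.34% lower and 2.83% higher of all genes. The study set these thresholds on a fit of read counts and removed immunoglobulin genes from its called genes. These counts therefore have no counterpart in it. With 1 of the 2 Pax5(-/-) libraries left out, 29 (without replicate 1) or 34 (without replicate 2) members were lower and 3 were higher in either case. Fold changes are differences of mean log2(TPM + 0.5), so they mostly come out too small for low V segments. On short D segments, where 1 read stands for several TPM, a library at 0 can make them larger than the ratio from reads.

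The constant region entries were dominated by *Ighm*, which encodes the mu chain of IgM and took between 72.1% and 78.3% of all heavy chain TPM in each of the 5 libraries. *Ighm* was at 3504, 3049 and 3381 TPM in wild-type and at 2415 and 2596 TPM in Pax5(-/-) cells. The genotypes did not overlap, and the log2 fold change was -0.40 (SE 0.11, adjusted p = 0.029). The median of all genes was itself below 0 here, and after rescaling of the libraries by median ratios, which moved the median log2 fold change of all genes from -0.12 to -0.01, *Ighm* was no longer past the test (log2 fold change -0.28, adjusted p = 0.33). Its call was also lost without wild-type replicate 1 (-0.36, adjusted p = 0.057) and without Pax5(-/-) replicate 1 (-0.35, adjusted p = 0.26) or 2 (-0.45, adjusted p = 0.18), as well as without the filter on low values (adjusted p = 0.091) and without the intensity trend of the fit (0.060).

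*Ighd*, which encodes the delta chain of IgD and is spliced from the same transcript as *Ighm*, was at 31.5, 34.9 and 66.3 TPM in wild-type and at 22.95 and 21.02 TPM in Pax5(-/-) cells (log2 fold change -0.91, SE 0.30, adjusted p = 0.045). This call was lost without wild-type replicate 2 (-1.04, adjusted p = 0.063) and without Pax5(-/-) replicate 1 (-0.98, adjusted p = 0.20) or 2 (-0.85, adjusted p = 0.27). It was also lost without the filter on low values (adjusted p = 0.097), without the intensity trend of the fit (0.086) and with robust fitting (0.059). *Ighg2b*, the gamma 2b constant region whose germline transcripts precede class switching, was at 43.5, 21.4 and 20.4 TPM in wild-type but at 0.048 and 0.053 TPM in Pax5(-/-) cells. Of all members tested this was the largest fitted difference, with a log2 fold change of -5.63 (SE 0.34, adjusted p = 3.33e-05). *Ighg2b* passed the filter through the wild-type libraries alone, so it had to differ to some degree. *Ighg3* was at 3.83, 0.12 and 0.04 TPM in wild-type and at 0 in Pax5(-/-) cells, and its difference did not pass the test (adjusted p = 0.30), since replicate 1 of wild-type held nearly all of it. *Ighg2a* was at 0.47, 0.82 and 0.42 TPM in wild-type, and 0 was listed in both Pax5(-/-) libraries. *Igha* stood between 0 and 1.34 TPM, *Ighg1* between 0 and 0.08 TPM and *Ighe* between 0 and 0.04 TPM across the 5 libraries. Thus 3 of 4 tested constant entries were lower, against 21.5% of all genes tested. Only 2 of the 4 passed the filter in both genotypes, namely *Ighm* and *Ighd*, and both were lower. Their summed TPM was 3387 ± 248 (SD, n = 3) in wild-type and 2528 ± 127 (SD, n = 2) in Pax5(-/-) cells, a ratio of 0.75 that fell to 0.29 without *Ighm*.

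**Figure D1:**
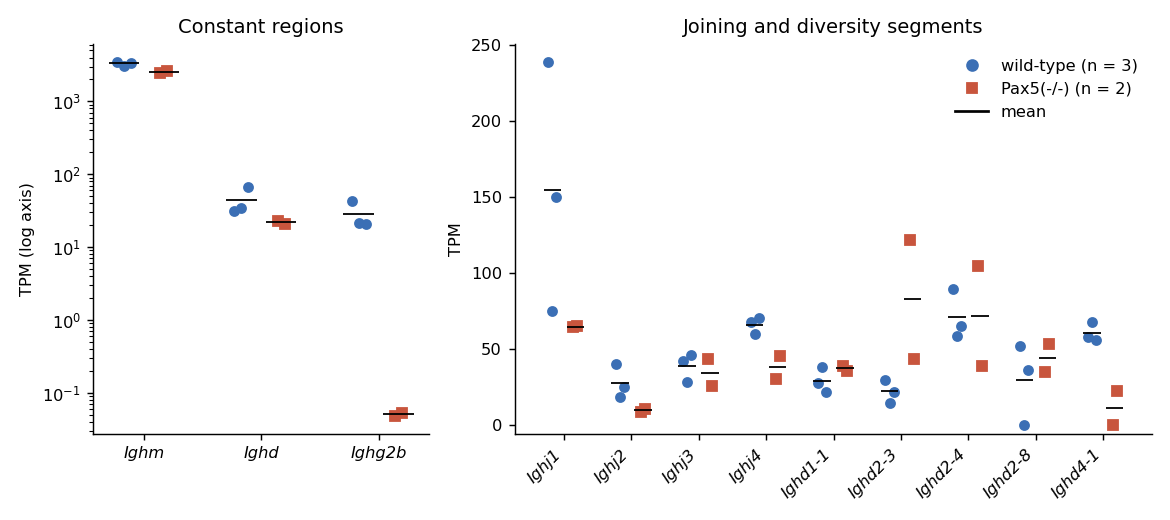
TPM of constant regions (left, log axis) and of joining and diversity segments (right, linear axis) in each wild-type (circles, n = 3) and Pax5(-/-) (squares, n = 2) library, with the mean as a line. *Ighg2b* stands at 20.4 TPM or more in wild-type and at 0.048 and 0.053 TPM in Pax5(-/-) libraries, while *Ighj3* and *Ighd2-4* overlap between the genotypes.

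The depth behind the segments could be read from the tables. For the 133 members with a GENCODE vM1 model, TPM times exonic length was a whole multiple of 1 constant per library for 100% of the values above 0 (tolerance 0.05 reads), so that each value could be written as a number of reads. One read stood for 0.36, 0.35 and 0.35 TPM in the wild-type libraries and for 0.42 and 0.23 TPM in the Pax5(-/-) libraries on a segment of 350 bases. On a D segment of 17 bases it stood for 7.45, 7.30, 7.20, 8.71 and 4.82 TPM. In total, the V segments held 1467, 1061 and 1964 reads in wild-type and 678 and 1355 reads in Pax5(-/-) libraries. The J segments held 162, 77 and 125 against 51 and 94 reads, and the D segments 37, 26 and 27 against 41 and 45 reads. Intervals made from these reads cover counting error only.

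The J segments, which supply the end of the variable domain, are shown as the annotation gives them, since reads were assigned by these models. Capitals mark TGGGG, which encodes the tryptophan and the start of the glycine codon of the conserved J motif.

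Ighj1 (chr12:114667992-114668044): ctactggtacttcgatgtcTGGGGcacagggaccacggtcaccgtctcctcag

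Ighj2 (chr12:114667725-114667778): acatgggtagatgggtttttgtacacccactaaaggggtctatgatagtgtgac

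Ighj3 (chr12:114667296-114667343): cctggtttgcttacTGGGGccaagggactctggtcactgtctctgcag

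Ighj4 (chr12:114666725-114666778): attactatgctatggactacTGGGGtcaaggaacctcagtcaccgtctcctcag

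Bases after the Ighj2 model (chr12:114667671-114667724): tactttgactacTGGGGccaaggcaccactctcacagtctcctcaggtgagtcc

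The model of *Ighj2* holds no TGGGG, whereas the same number of bases directly after it does. Values of *Ighj2* therefore count reads before the coding segment and not on it, as far as the authors' annotation had the same model.

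*Ighj1*, the segment nearest to the D cluster, was at 239, 75.0 and 150 TPM in wild-type (100, 32 and 65 reads) and at 64.3 and 65.0 TPM in Pax5(-/-) cells (23 and 42 reads). All wild-type libraries were above the Pax5(-/-) ones, but the wild-type spread was wide and the difference did not pass the test (log2 fold change -1.10, SE 0.41, adjusted p = 0.069). Without wild-type replicate 2 it did (log2 fold change -1.54, adjusted p = 0.0048). *Ighj2* was at 39.9, 18.4 and 24.9 against 8.23 and 10.6 TPM and was lower in Pax5(-/-) cells (log2 fold change -1.45, SE 0.30, adjusted p = 0.0090). *Ighj4* was at 68.0, 59.8 and 70.3 against 30.2 and 45.5 TPM and was lower as well (-0.82, SE 0.18, adjusted p = 0.011). The call of *Ighj2* was lost without Pax5(-/-) replicate 1 (-1.27, adjusted p = 0.12) or 2 (-1.62, adjusted p = 0.079), and that of *Ighj4* without replicate 1 (-0.53, adjusted p = 0.091). *Ighj3* overlapped between the genotypes, at 42.2, 28.5 and 45.9 against 43.2 and 25.6 TPM (-0.19, adjusted p = 0.60). The 4 J segments together had 287 ± 104 TPM in wild-type (SD, n = 3) and 146 ± 0.61 TPM in Pax5(-/-) cells (SD, n = 2). The genotypes did not overlap, and the ratio was 0.51.

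The D segments form the middle of the third complementarity-determining region, the most diverse part of the antigen-binding site. The 5 segments with the most reads and a pair without reads are shown, since the latter cannot be told apart by any read.

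Ighd1-1 (chr12:114720381-114720403): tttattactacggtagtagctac

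Ighd2-3 (chr12:114713611-114713627): tctatgatggttactac

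Ighd2-4 (chr12:114708905-114708921): tctactatgattacgac

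Ighd2-8 (chr12:114689062-114689078): tctactatggtaactac

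Ighd4-1 (chr12:114668739-114668749): ctaactgggac

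Ighd2-5 and Ighd2-6 (chr12:114704238-114704254 and chr12:114699580-114699596): cctactatagtaactac

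Of the 20 D entries, 12 were at 0 in all 5 libraries and 8 were tested, of which 1 was lower and 1 higher in Pax5(-/-) cells. Among all genes tested, 21.5% were lower and 15.6% higher, so these counts do not set the D segments apart. *Ighd4-1* (DQ52), which lies directly before *Ighj1*, was at 57.6, 67.7 and 55.6 TPM in wild-type and at 0 and 22.4 TPM in Pax5(-/-) cells. These were 5, 6 and 5 against 0 and 3 reads, a wild-type level 4.19 times that of Pax5(-/-) cells (95% exact counting interval 1.20 to 22.4). Its log2 fold change was -4.16 (SE 1.31, adjusted p = 0.041), and this call was lost when any 1 of the wild-type libraries was left out (adjusted p between 0.077 and 0.11). It was also lost with a pseudocount of 0.1 (adjusted p = 0.059), without the filter (0.099), without the trend (0.084), with robust fitting (0.18) and with quantile normalization (0.053). *Ighd2-3* was at 29.8, 14.6 and 21.6 against 122 and 43.4 TPM, from 4, 2 and 3 against 14 and 9 reads, and was higher (log2 fold change 1.76, SE 0.44, adjusted p = 0.017). The call of *Ighd2-3* was lost without Pax5(-/-) replicate 1 (1.02, adjusted p = 0.15) and without wild-type replicate 2 (1.503, adjusted p = 0.056), and with robust fitting (adjusted p = 0.057).

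*Ighd1-1* (DFL16.1), the D segment nearest to the V cluster of those shown, was at 27.5, 37.8 and 21.3 against 38.6 and 35.6 TPM and did not pass the test (0.40, adjusted p = 0.21), but did without wild-type replicate 2 (0.61, adjusted p = 0.045). *Ighd2-4* was at 89.4, 58.4 and 64.8 against 105 and 38.6 TPM (-0.13, adjusted p = 0.81). *Ighd2-8* was at 52.1, 0 and 35.99 against 34.8 and 53.0 TPM (2.14, adjusted p = 0.38), whereas its level from the reads was 1.59 times higher in Pax5(-/-) cells (95% counting interval 0.70 to 3.72). *Ighd2-7*, *Ighd3-2* and *Ighd5-5* had at most 3 reads in a library and none passed. The summed D values overlapped between the genotypes, at 288, 206 and 207 TPM in wild-type and 345 and 213 TPM in Pax5(-/-) cells. *Ighd2-5* and *Ighd2-6* have the same sequence and no window of 50 bases around them that occurs once in the locus, and both were at 0 in every library.

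The V segments as a class were lower in Pax5(-/-) cells. Their sum was 554, 397 and 726 TPM in wild-type and 306 and 338 TPM in Pax5(-/-) cells, without overlap and with a ratio of 0.58. Of the 113 V entries, 89 were tested. Of these, 50 were lower, 5 were higher and 34 did not pass, against 21.5% lower and 15.6% higher of all genes tested. A further 8 were at 0 in every library. The median log2 fold change was -1.44, or -1.28 with those at 0 in both Pax5(-/-) libraries at their bound and *Ighv13-2*, which has no bound, left out. Among the 37 that passed the filter in both genotypes, 12 were lower, 3 were higher and the median was -0.68.

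Fewer V segments had a read in the Pax5(-/-) libraries. Of 109 V segments with a model, 92, 93 and 97 had at least 1 read in the wild-type libraries and 64 and 75 in the Pax5(-/-) libraries. Yet 1 read stood for less TPM in Pax5(-/-) replicate 2 than in any other library, a relative depth of 1.54 against wild-type replicate 1. The median V segment had 8, 6 and 13 reads in wild-type and 1 and 2 reads in Pax5(-/-) cells. Of the 113 V entries, 13 were at 0 in both Pax5(-/-) libraries and above 0 in every wild-type library. Some of these rest on few reads, such as *Ighv11-1* with 4, 2 and 1 in wild-type. The share of all genes with this pattern was not counted, so the number cannot be called unusual.

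The V signal that remained in Pax5(-/-) cells was concentrated in *Ighv1-23* and *Ighv14-2*. Both together made up 17.7%, 20.7% and 13.5% of the V total in wild-type and 46.6% and 43.2% in Pax5(-/-) cells. *Ighv1-23*, a member of the distal IGHV1 family, was at 32.9, 33.0 and 34.3 TPM in wild-type (88, 90 and 95 reads) and at 83.9 and 87.8 TPM in Pax5(-/-) cells (192 and 363 reads). Its log2 fold change was 1.35 (SE 0.11, adjusted p = 0.00011), and from the reads it was 2.59 times higher in Pax5(-/-) cells (95% counting interval 2.23 to 3.00). *Ighv14-2*, the highest V segment of wild-type cells, was at 65.3, 49.2 and 63.5 against 58.7 and 58.4 TPM and overlapped between the genotypes. Its log2 fold change was -0.01 (SE 0.14, adjusted p = 0.97), and the ratio of the levels from the reads was 0.99 (0.86 to 1.13). Without these 2 segments the V sum was 456, 315 and 628 TPM in wild-type and 163 and 192 TPM in Pax5(-/-) cells.

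**Figure D2:**
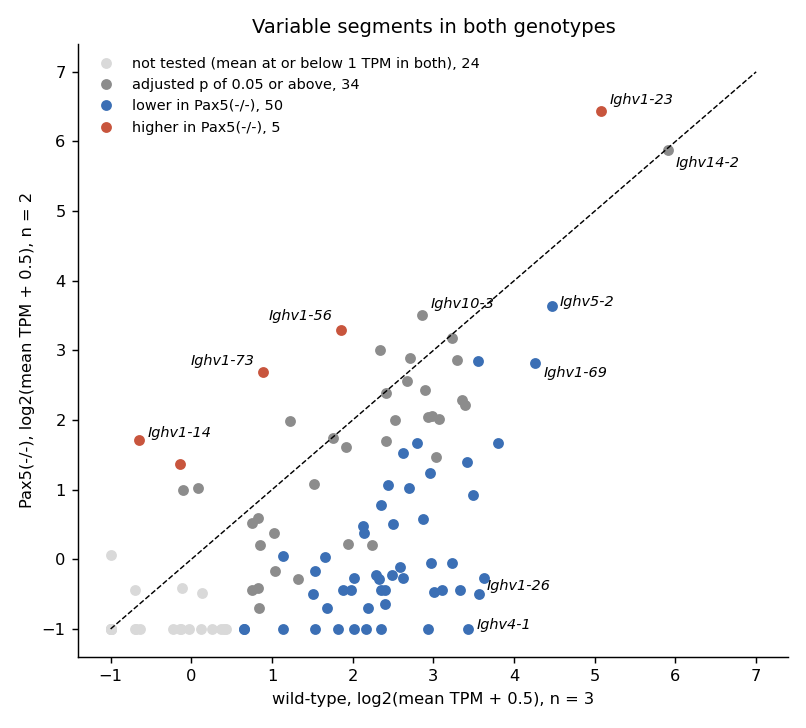
Mean TPM of the 113 V segments in wild-type (x axis, n = 3) and Pax5(-/-) (y axis, n = 2) pro-B cells, both as log2(mean TPM + 0.5), with the line of equal values dashed. The 50 lower segments lie under the line, while *Ighv1-23* lies above it and *Ighv14-2* on it.

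Only 4 further V segments were higher in Pax5(-/-) cells, and all belong to the distal families IGHV1 and IGHV8. *Ighv1-56* was at 4.31, 2.11 and 2.91 against 6.05 and 12.5 TPM (1.401, SE 0.37, adjusted p = 0.021), a call that was lost without Pax5(-/-) replicate 2 (0.90, adjusted p = 0.23) and without wild-type replicate 2 (1.19, adjusted p = 0.066), and without the filter on low values (0.058). *Ighv1-73* was at 1.38, 0.68 and 2.01 against 6.47 and 5.37 TPM (1.85, SE 0.35, adjusted p = 0.0054). *Ighv1-14* had 1 read in the 3 wild-type libraries together and 6 and 9 reads in the Pax5(-/-) libraries (log2 fold change 2.41, SE 0.36, adjusted p = 0.0022), which gave a level 19.1 times higher with a counting interval from 2.94 to 804. *Ighv8-9* had 3 reads in wild-type and 12 in Pax5(-/-) cells (1.61, adjusted p = 0.022, counting interval of the ratio 1.37 to 28.1). Both *Ighv1-14* and *Ighv8-9* passed the filter through the Pax5(-/-) libraries alone, so they had to differ to some degree. Without Pax5(-/-) replicate 1 or 2, the calls of *Ighv1-73* (adjusted p = 0.073 and 0.062) and of *Ighv8-9* (0.12 and 0.15) were lost, that of *Ighv8-9* also with a pseudocount of 0.1 (0.058), while those of *Ighv1-23* and *Ighv1-14* were not.

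At the other end, *Ighv4-1* had the largest V difference. It was at 13.4, 4.97 and 12.6 TPM in wild-type (37, 14 and 36 reads) and at 0 in both Pax5(-/-) libraries. With a floor of 3 reads per library it was at least 10.5-fold lower in Pax5(-/-) cells (adjusted p = 0.00029). *Ighv1-26* had 28, 21 and 47 reads in wild-type and 1 and 0 reads in Pax5(-/-) cells, a wild-type level 75.4 times higher with a counting interval of 13.2 to 3010 (log2 fold change -4.05, SE 0.39, adjusted p = 0.00029). *Ighv3-6* had 34, 18 and 48 against 1 and 1 reads (39.3 times, interval 10.6 to 329, adjusted p = 0.00036). *Ighv5-17* had 29, 16 and 35 against 0 and 2 reads (31.4 times, interval 8.42 to 264, adjusted p = 0.00046).

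The remaining large differences were of the same kind. *Ighv1-81* had 22, 12 and 35 against 0 and 2 reads (27.1 times, interval 7.22 to 228), and *Ighv14-1* had 35, 14 and 26 against 0 and 4 reads (14.7 times, interval 5.52 to 55.5). *Ighv5-15* was at 3.98, 2.48 and 7.34 TPM in wild-type and at 0 in Pax5(-/-) cells, at least 4.67-fold lower by the same floor. *Ighv13-2*, for which no model and so no read number was at hand, was at 4.97, 4.17 and 12.3 TPM in wild-type and was listed at 0 in both Pax5(-/-) libraries (adjusted p = 0.00065). None of these 8 segments overlapped between the genotypes, which follows in part from their choice as the largest falls past the test. All 8 passed the filter through the wild-type libraries alone and so had to differ to some degree.

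*Ighv14-1* and *Ighv14-2* belong to the same family and lie close, and their spans are 97.0% identical. *Ighv14-1* was lower in Pax5(-/-) cells (log2 fold change -3.38, SE 0.52, adjusted p = 0.0023), whereas *Ighv14-2* was not past the test. The other members of the family were *Ighv14-3*, which was lower (-2.31) but not without Pax5(-/-) replicate 1 (-1.84, adjusted p = 0.078), and *Ighv14-4*, at 10.6, 1.49 and 15.8 against 7.12 and 6.40 TPM. The low value of *Ighv14-4* in wild-type replicate 2 decided its direction. The log2 fold change was 0.02 (adjusted p = 0.98) with this library and -0.90 (adjusted p = 0.044) without it. *Ighv14-1* and *Ighv14-3* passed the filter through the wild-type libraries alone, so they had to differ to some degree.

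Families were compared by their summed TPM, as values without a test. IGHV5, the nearest family, was at 68.6, 45.4 and 81.7 TPM in wild-type and at 18.6 and 22.0 TPM in Pax5(-/-) cells, a ratio of 0.31, with 7 of 9 entries lower. IGHV2 was at 49.6, 33.3 and 57.8 against 12.8 and 10.1 TPM, a ratio of 0.24, with 6 of 8 tested entries lower. No entry of either family was higher. Of all genes tested, 21.5% were lower. In IGHV5, 5 entries passed the filter through the wild-type libraries alone, and in IGHV2 4 did, so these had to differ to some degree. Among the 4 entries of each family that passed in both genotypes, 3 were lower. IGHV3 showed a ratio of 0.067, from 22.95, 16.7 and 26.9 to 1.42 and 1.54 TPM. IGHV12, with a single entry, was at 6.55, 4.28 and 5.63 against 0.85 and 0 TPM. IGHV4 and IGHV13, each with reads from a single entry, were listed at 0 in Pax5(-/-) cells.

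In IGHV1, the largest family with 56 entries, the sums overlapped between the genotypes at 223, 179 and 323 against 166 and 191 TPM. Within these sums, *Ighv1-23* alone held 32.9, 33.0 and 34.3 against 83.9 and 87.8 TPM, so the overlap leans on this segment. Of the 44 tested IGHV1 entries, 22 were lower, 4 were higher and 18 did not pass. Of these 44, 22 passed the filter through the wild-type libraries alone and 3 through the Pax5(-/-) libraries alone, so they had to differ to some degree. Among the 19 that passed in both genotypes, 6 were lower, 3 were higher and the median log2 fold change was -0.46. The IGHV1 entries thus moved unequally, from *Ighv1-14* at 2.41 to *Ighv1-26* at -4.05 in log2 fold change. Among the high ones in wild-type cells, *Ighv1-69* was at 20.7, 17.1 and 18.3 against 7.24 and 5.89 TPM (-1.45, SE 0.18, adjusted p = 0.00080), and *Ighv1-53* was at 15.2, 12.7 and 12.6 against 2.53 and 2.80 TPM (-2.14, SE 0.19, adjusted p = 0.00018). *Ighv1-67* differed less, at 9.04, 10.98 and 13.7 against 7.05 and 6.41 TPM (-0.68, SE 0.21, adjusted p = 0.041). Its call was lost without wild-type replicate 2 or 3 (adjusted p = 0.096 and 0.061) and without Pax5(-/-) replicate 1 or 2 (adjusted p = 0.18 and 0.27), and without the filter on low values (0.078). *Ighv1-5* overlapped between the genotypes (0.32, adjusted p = 0.60).

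IGHV8 was at 20.7, 16.3 and 31.9 against 12.5 and 12.3 TPM, with 2 lower and 1 higher of 5 tested entries. Of these 5, 2 passed the filter through the wild-type libraries alone and 1 through the Pax5(-/-) libraries alone. The 2 that passed in both genotypes were not past the test. *Ighv8-6* was at 7.15, 4.13 and 2.44 against 7.38 and 7.62 TPM (0.77, adjusted p = 0.15), and passed the test without wild-type replicate 1 (1.12, adjusted p = 0.017). IGHV10, with 2 entries that lie among the first IGHV1 segments, had no entry past the test. *Ighv10-1* was at 10.2, 7.26 and 9.20 against 8.25 and 8.90 TPM (-0.04, adjusted p = 0.90). *Ighv10-3* was at 3.88, 4.84 and 11.6 against 6.60 and 15.1 TPM (0.68, adjusted p = 0.30).

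**Figure D3:**
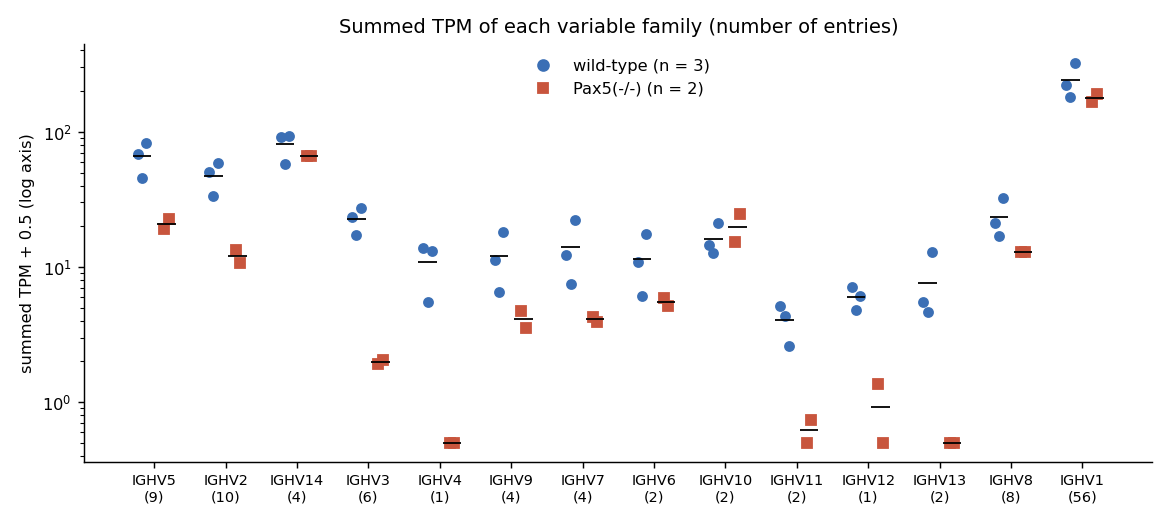
Summed TPM + 0.5 (log axis) of V families, with the number of entries in brackets, in each wild-type (circles, n = 3) and Pax5(-/-) (squares, n = 2) library, and the mean as a line. The genotypes are apart for IGHV5 and IGHV2 and overlap for IGHV14, IGHV10 and IGHV1.

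By position, the proximal families IGHV5 and IGHV2 summed to 118, 78.7 and 140 TPM in wild-type and to 31.3 and 32.1 TPM in Pax5(-/-) cells, a ratio of 0.28. The families between had a ratio of 0.55, at 193, 122 and 232 against 96.3 and 103 TPM. The distal families IGHV1 and IGHV8 overlapped, at 243, 196 and 355 against 178 and 203 TPM, with a ratio of 0.72. The proximal share of all V TPM was therefore 21.3%, 19.8% and 19.2% in wild-type and 10.2% and 9.49% in Pax5(-/-) cells, and the distal share was 43.9%, 49.3% and 48.9% against 58.3% and 59.9%. *Ighv1-23* alone accounted for 27.4% and 25.9% of the V total in Pax5(-/-) cells, against between 4.73% and 8.31% in wild-type. *Ighv14-2*, in the families between, accounted for 19.2% and 17.25%, against between 8.74% and 12.4%. The ratios of the distal sum and of the sum between therefore lean on these single segments and do not stand for most entries. Of the tested entries, 13 of 17 were lower in the proximal group, 13 of 23 in the families between and 24 of 49 in the distal group, with median log2 fold changes of -1.61, -1.62 and -1.20. Of these entries, 9, 15 and 24 passed the filter through the wild-type libraries alone, so that they had to differ to some degree. Among those that passed in both genotypes, 6 of 8 proximal entries were lower (median -1.12), the 8 of the families between did not pass (median -0.16), and 6 of 21 distal entries were lower and 3 higher (median -0.30). Over all tested entries, the medians were -1.58, -1.28 and -0.98 with entries at 0 in both Pax5(-/-) libraries at their bound.

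Within the proximal group the differences were larger far from *Ighj1* than close to it, although not in strict order. *Ighv5-2*, at 149 kb and with the exons of its model on chr12:114816715-114817201, was the proximal segment that kept most of its level, at 18.1, 19.2 and 27.6 against 11.8 and 11.9 TPM (log2 fold change -0.81, SE 0.20, adjusted p = 0.019). Its neighbours *Ighv2-2* at 158 kb (-1.06, adjusted p = 0.082), *Ighv5-4* at 168 kb (-0.99, adjusted p = 0.058) and *Ighv2-3* at 181 kb (-1.10, adjusted p = 0.011) were similar in size. *Ighv5-6* at 196 kb followed with -1.61 (adjusted p = 0.0083), while *Ighv2-4* at 223.5 kb (-1.18, adjusted p = 0.23) and *Ighv5-9* at 231.9 kb (-1.36, adjusted p = 0.12) did not pass. *Ighv2-5* at 256 kb was lower by more (-2.06, adjusted p = 0.0042) than the segments after it, *Ighv5-12* at 272.3 kb (-1.13, adjusted p = 0.021) and *Ighv2-6* at 286.8 kb (-1.36, adjusted p = 0.011). Without Pax5(-/-) replicate 1 or 2, the calls of *Ighv5-2* (adjusted p = 0.14 and 0.15), *Ighv2-3* (0.11 and 0.10), *Ighv5-6* (0.073 and 0.11), *Ighv5-12* (0.20 and 0.060) and *Ighv2-6* (0.12 and 0.068) were lost, and that of *Ighv2-5* without replicate 1 (0.050). *Ighv5-12* was also lost without wild-type replicate 3 (adjusted p = 0.051) and without the filter on low values (0.055). Without wild-type replicate 2, *Ighv2-2* (-1.43, adjusted p = 0.030), *Ighv5-4* (-1.32, adjusted p = 0.016) and *Ighv5-9* (-2.01, adjusted p = 0.0074) passed the test, as did *Ighv2-4* without wild-type replicate 1 (-1.91, adjusted p = 0.017) and *Ighv5-4* with robust fitting (adjusted p = 0.049). The proximal segments from *Ighv5-6* on were named after their values were seen, unless given above. Of the segments up to *Ighv2-6*, *Ighv2-4*, *Ighv5-9* and *Ighv2-5* passed the filter through the wild-type libraries alone and so had to differ to some degree.

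Beyond 300 kb, all 7 tested entries of these families were lower, with fitted log2 fold changes from -2.55 to -3.78. Of these, 6 passed the filter through the wild-type libraries alone and so had to differ to some degree, the exception being *Ighv2-9*. *Ighv5-9-1* at 306 kb was at 5.06, 2.13 and 5.94 against 0 and 0.70 TPM, a call lost without Pax5(-/-) replicate 1 (adjusted p = 0.084), and *Ighv2-9-1* at 340 kb at 4.38, 3.58 and 7.41 against 0 and 0.71 TPM. *Ighv2-6-8* at 366 kb, *Ighv5-15* at 397 kb and *Ighv5-16* at 409 kb were at 0 in both Pax5(-/-) libraries, at least 3.00-fold, 4.67-fold and 3.61-fold lower. *Ighv2-9* at 449 kb, the last of the group, was at 8.76, 8.23 and 15.2 against 2.56 and 0.24 TPM (-2.85, SE 0.57, adjusted p = 0.0071), a call that was lost without Pax5(-/-) replicate 2 (-1.82, adjusted p = 0.055).

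Over the 17 tested proximal entries, Spearman's rho between distance and log2 fold change was -0.92, as a description across segments that share their libraries and are not independent. This rho lay between -0.94 and -0.81 under the other settings and without each library in turn, all on the same entries or a part of them. Of the 17 entries, 9 passed the filter through the wild-type libraries alone and so had to differ to some degree. They lie mostly in the farther part of the group. The rho with distance was -0.26 for the wild-type mean and -0.71 for the Pax5(-/-) mean, and 0.33 for the share of unique 50-base windows. In the 22 modelled entries of the families between it was 0.34, and in the 48 of the distal families it was -0.01, from 1039 to 2570 kb. In steps of 250 kb, the median log2 fold change was -1.10 under 250 kb (7 entries), -2.79 up to 500 kb (11), -1.62 up to 750 kb (11), -1.99 up to 1000 kb (6) and -0.49 up to 1250 kb (12). Farther out it was -1.87 up to 1500 kb (7 entries), -1.78 up to 1750 kb (7), -1.18 up to 2000 kb (8), -0.68 up to 2250 kb (9), -1.24 up to 2500 kb (6) and -1.74 beyond (3). The medians thus rose and fell along the locus, from few entries in each step.

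**Figure D4:**
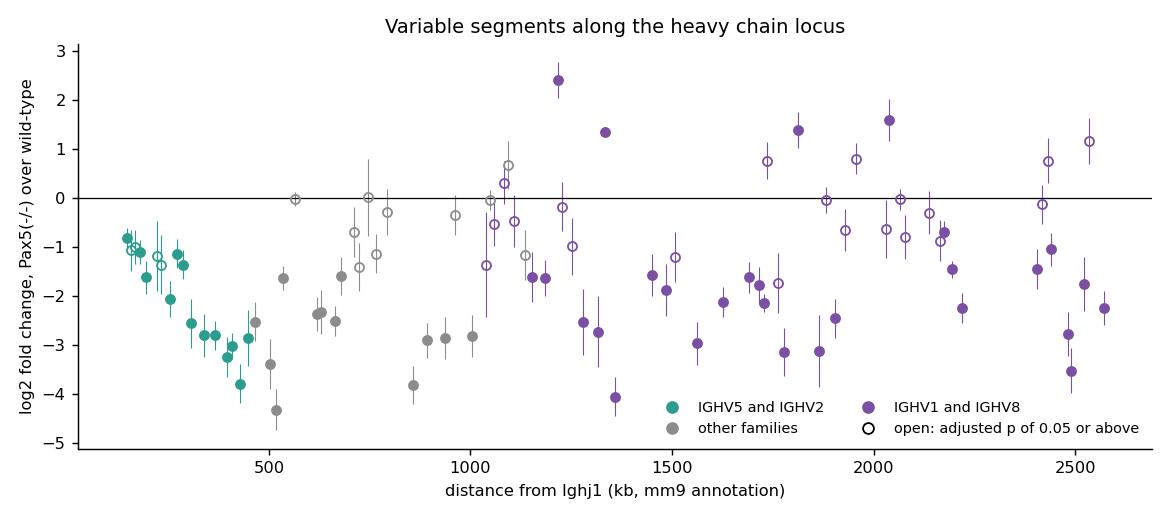
Log2 fold change of tested V segments with a model (Pax5(-/-) over wild-type, with limma standard errors as bars) against the distance from *Ighj1* in kb, coloured by family group. The IGHV5 and IGHV2 segments run from -0.81 at 149 kb to -3.78 at 429 kb, while IGHV1 and IGHV8 segments scatter from 2.41 to -4.05.

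At the far end of the locus, *Ighv1-85* at 2570 kb was at 2.89, 2.48 and 5.23 against 0.42 and 0.23 TPM (-2.23, SE 0.35, adjusted p = 0.0025). It passed the filter through the wild-type libraries alone, so it had to differ to some degree. *Ighv1-82* was at 6.46, 4.22 and 19.98 against 2.02 and 2.23 TPM (-1.74, SE 0.55, adjusted p = 0.042). The call of *Ighv1-82* was lost without wild-type replicate 1 (adjusted p = 0.053) and without Pax5(-/-) replicate 1 or 2 (0.23 for each), as well as without the filter on low values (0.099), without the trend (0.076) and with robust fitting (0.075). *Ighv1-84* was too low to be tested, with 3 reads in wild-type and none in Pax5(-/-) cells. Of the 10 highest V segments in each genotype, 4 were shared, namely *Ighv14-2*, *Ighv1-23*, *Ighv5-2* and *Ighv1-67*.

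V segments resemble each other, and the counting left out reads that fit several places. The median V segment had 75.1% of its 50-base windows once in the locus, with 76.3% in the lower segments and 72.0% in the other tested V segments. *Ighv1-23* had 59.95% and differs from *Ighv1-15* in 9 of 422 bases. *Ighv1-15* was at 1.87, 1.83 and 6.14 against 1.75 and 3.38 TPM (-0.17, adjusted p = 0.74). *Ighv1-26* had 39.4%, *Ighv1-53* 31.2% and *Ighv8-9* 49.1%, so these values stand for the reads that remain unique, whereas *Ighv5-2* and *Ighv5-16* had 100%. When only entries with at least 80% of unique windows were summed, the V ratio was 0.38 in place of 0.58, and this set leaves out *Ighv1-23* and *Ighv14-2*.

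The chains and factors around the locus were described by fixed lists. Of 7 partner genes of the heavy chain, 5 were lower, 1 was higher and 1 did not pass, against 21.5% lower and 15.6% higher of all genes tested. *Igll1* and *Vpreb1*, which encode the surrogate light chain that pairs with the mu chain, fell by 2.20 and 2.58 on the log2 scale (adjusted p = 1.46e-05 and 5.73e-06). *Cd79a*, a signalling chain of the receptor, fell by 3.00 (adjusted p = 2.61e-05), and *Cd79b*, the other one, by 0.60 (adjusted p = 0.0069). *Igj*, the joining chain of secreted IgM and IgA, rose from between 0.17 and 0.77 TPM to 545 and 695 TPM. *Vpreb2* was not past the test (-0.03, adjusted p = 0.88).

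Of 32 tested genes for recombination and locus structure, 17 were lower and 3 were higher in Pax5(-/-) cells. The share over all genes tested was 21.5% lower and 15.6% higher. *Rag2* fell by 1.56 (adjusted p = 0.00018) and *Rag1* by 0.52 (adjusted p = 0.026) on the log2 scale. *Polm*, a polymerase of the joining step, was at 6.02, 4.71 and 11.003 against 0 and 0.08 TPM, whereas *Dntt*, which adds nucleotides at the joints, was not past the test (0.07, adjusted p = 0.90). The higher ones were *Wapal*, which releases cohesin from DNA (6.16, 7.20 and 13.6 against 35.5 and 32.1 TPM, log2 fold change 1.93, adjusted p = 0.0028), *Xrcc5* (1.19) and *Poll* (0.67), both of which act in end joining. Among factors that act on the locus, *Ebf1* fell by 1.48, *Tcf3* by 1.74, *Ezh2* by 0.85 and *Ctcf* by 0.47, while *Yy1* (-0.11, adjusted p = 0.56) and *Ikzf1* (-0.02, adjusted p = 0.88) did not pass the test.

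The Pax5(+/+) Meox2-cre pro-B cells are described apart, since another aligner, genome build and annotation were used for them. They expressed *Vpreb1* at 2645, 2545 and 2746 TPM, and *Cd3e* was at most 0.25 TPM. *Ighm* was at 4267, 4381 and 4535 TPM (4394 ± 134, SD, n = 3). *Ighd* was at 38.6 ± 1.497 TPM and *Ighg2b* at 38.1 ± 4.49 TPM (SD, n = 3 for each), followed by *Igha* at 5.21 ± 1.66 TPM. *Ighg1*, *Ighe*, *Ighg3* and *Ighg2c* were at 0.12 TPM or below in every library.

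The J segments of the Meox2-cre cells followed in the order *Ighj1* (174 ± 22.2 TPM), *Ighj3* (148 ± 16.1 TPM), *Ighj4* (116 ± 23.03 TPM) and *Ighj2* (86.8 ± 6.29 TPM; SD, n = 3 for each). *Ighj1* and *Ighj3* overlapped between libraries, whereas *Ighj2* was the lowest in each library. Among D segments, *Ighd1-1* was at 109 ± 33.1 TPM, *Ighd2-4* at 87.0 ± 10.7 TPM and *Ighd4-1* at 77.9 ± 12.8 TPM, and their libraries overlapped. *Ighd2-3* was at 77.1, 34.0 and 13.6 TPM. As in the mm9 tables, 12 of 20 D entries were at 0, including *Ighd2-5* and *Ighd2-6*.

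The V segments of the Meox2-cre cells summed to 865, 1079 and 990 TPM. Of the 183 entries, 97 had a mean above 1 TPM and 47 were at 0 in all 3 libraries. The 120 entries that RefSeq names as V segments held 95.5% of the V total, and the 63 pseudogenes held 4.46%. The proximal families made up 19.5%, the families between 31.3% and the distal families 49.2% of the V total (means of 3 libraries).

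*Ighv14-2* was the highest V segment, at 84.2, 82.2 and 94.0 TPM, and stood apart from all others. *Ighv5-2* followed at 38.6 ± 2.43 TPM (SD, n = 3). The next were *Ighv1-18* (29.3 ± 7.31 TPM), *Ighv1-23* (26.98 ± 6.06 TPM), *Ighv9-3* (24.6 ± 2.96 TPM) and *Ighv1-69* (23.7 ± 2.91 TPM), which overlapped with each other. *Ighv2-2*, *Ighv1-26*, *Ighv1-9* and *Ighv8-8* completed the first 10, at means between 17.6 and 20.4 TPM. Of these 10, 5 were also among the 10 highest V segments of the wild-type cells in the mm9 tables. Of the segments listed at 0 in both Pax5(-/-) libraries, *Ighv4-1* was at 8.63, 10.3 and 9.23 TPM and *Ighv13-2* at 8.30, 15.4 and 13.9 TPM here. *Ighv1-14*, which was higher in Pax5(-/-) cells, stood at 0.30, 0.29 and 0.58 TPM in the Meox2-cre cells.

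**Figure D5:**
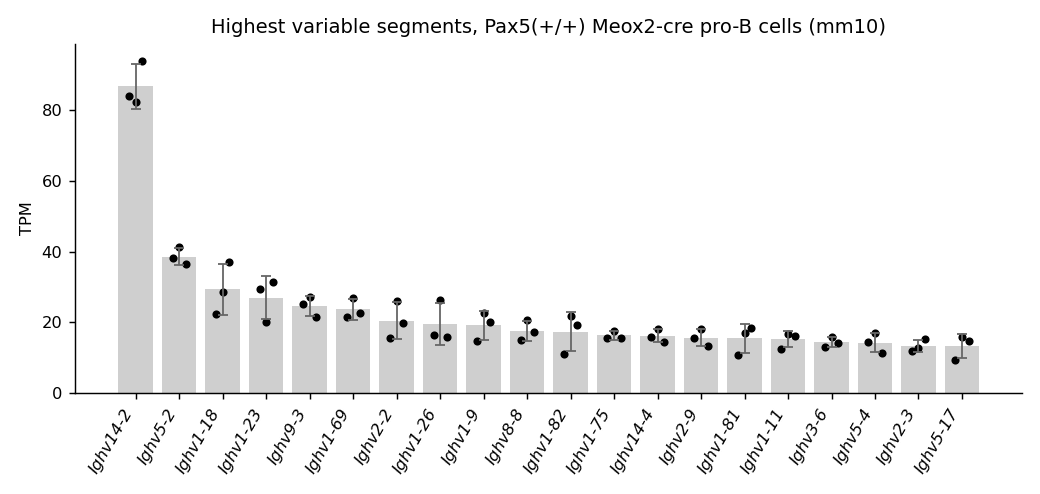
TPM of the 20 highest V segments in Pax5(+/+) Meox2-cre pro-B cells (mm10 tables), with bars for the mean, error lines for the SD and points for the 3 libraries. *Ighv14-2* lies at 82.2 TPM or above in each library, and *Ighv5-2* follows at 38.6 TPM.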

How the data were processed

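RNA was sequenced from 3 wild-type, 2 Pax5(-/-) and 3 Pax5(+/+) Meox2-cre pro-B samples. The authors deposited TPM values per gene, and the immunoglobulin genes were part of the total. After removal of ribosomal RNA reads, they aligned the mm9 libraries with TopHat 1.4.1a and counted with featureCounts 1.5.0 on a modified refGene annotation to which immunoglobulin segments had been added. The Meox2-cre libraries were aligned to mm10 with STAR 2.4.2a. By default, featureCounts counts without strand and leaves out reads with several places, so near-identical segments lose reads. The default settings are stated for the mm9 tables only. Groups came from the labels, and replicate numbers follow the order of the samples and pair nothing.

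Values were fitted as log2(TPM + 0.5) with limma 3.58.1 in R 4.3.3 (lmFit, eBayes with trend, no covariate) for the 12066 genes that exceeded a mean of 1 TPM in either genotype, with Benjamini-Hochberg adjustment over all of them. An exact permutation test of 3 against 2 libraries cannot go below p = 0.1 and was not used. On simulated data with 200 genes changed 3-fold or 6-fold, the fit called 200 of 200 at either size, and 2 and 3 other genes. The changed genes all lay above 5 TPM, with normally distributed noise as wide as in wild-type. This check therefore says nothing about segments with few reads or values of 0. Total depth is unknown. Relative depths were 1, 1.02 and 1.03 in wild-type and 0.855 and 1.54 in Pax5(-/-) libraries, from the value of 1 read. That value follows the reads per base summed over all genes, so these depths are not ratios of read totals. Ratios from reads carry exact (Clopper-Pearson) 95% intervals, and floors are 3 reads per library.

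Models of 133 members came from GENCODE vM1 (NCBIM37, the build of mm9). The other 12, the constant entries and *Ighv1-33*, *Ighv1-73*, *Ighv13-2* and *Ighv3-5*, had none and so have no position or read number here. Python 3.11.15 with pandas 2.3.3, numpy 2.4.6 and matplotlib 3.10.9 served for tables and figures. Members, lists and tests were chosen with earlier results of these data known. Named were all constant entries, J and D entries above 1 TPM in a library, the 10 highest V entries of each genotype, the 8 largest V changes in each direction past the test, and fixed entries at both ends of the V cluster. The 10 highest V entries and all constant entries were named in the Meox2-cre tables. Other segments were named after their values were seen. One marker of the pro-B list and of the sort gates is not reported here. The ChIP-seq samples were not used here.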

Additional observations from a re-analysis of the deposited data

How the results depend on the processing

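The counts of lower and higher members moved by more than 1.5 times under stricter settings. With a filter at 5 TPM, 31 members and 25 V entries were lower and 3 V entries higher, against 56, 50 and 5. With the thresholds of the study, 21 members, 19 V, 1 constant and 0 J entries were lower, and 2 members and 1 V entry were higher. At an adjusted p below 0.01, 36 members, 1 constant, 1 J and 0 D entries were lower, and 3 members, 3 V and 0 D entries were higher. Leaving out each library in turn gave 29 to 64 lower and 3 to 7 higher members, 27 to 59 lower and 2 to 6 higher V, 1 to 3 lower constant, 0 to 3 lower J, and 0 to 1 lower and 0 to 1 higher D entries. The lower constant entries were 1 without the intensity trend. The lower D entry was lost (0) with a pseudocount of 0.1, without the filter, without the trend, with robust fitting and with quantile normalization, and the higher D entry was lost (0) with robust fitting. The cause was not tested. The ratio of the constant sum was 0.29 without its highest entry, *Ighm*. An alternative chosen after seeing the data, only entries with at least 80% of unique windows, gave a V ratio of 0.38. No member's name marks an overlap or a pseudogene, so leaving out marked entries changed no sum. Over 57 members, 781 refits left 711 on the same side of the threshold, 61 no longer past it, 8 newly past it and 1 reversed, namely *Ighv14-4* without wild-type replicate 2 (from -0.90 to 0.62 when each library was left out). Fits with a lone Pax5(-/-) library assume that it varies like the wild-type ones. No paired analysis was possible because replicate numbers only follow the sample order. V segments with a model that were too low to be tested had at most 4 reads in a library, and D segments at most 14, so the depth limits both.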
